A study of Mus musculus with 12 samples.

Results

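The response of young quadriceps femoris, the large extensor of the thigh, to treadmill training was examined by comparing the 3 libraries labelled young and exercised (numbers 7, 8 and 10) with the 3 labelled young and sedentary (numbers 1, 2 and 3). These 6 libraries, chosen by their labels alone, belong to a series of 12 that also holds old muscle. All came from C57BL/6 mice, an inbred laboratory strain, and the labels of these groups name no mutant allele and no drug. The young mice were 18 weeks old. Exercised animals ran for 8 weeks in sessions of 40 minutes, with 3 sessions per week and a belt speed that increased from 8 to 12 m/min, whereas sedentary animals had no scheduled running. The old groups, used here only for the difference between the responses, were 28 months old and had the same regimen or none. The labels give neither sex nor the number of animals behind a library nor the time between the last run and dissection, so the p-values speak only of the spread among these libraries.

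Skeletal muscle fibres are called slow or fast after the myosin, troponin and calcium pump isoforms they hold, and slow fibres burn more fat and carry more mitochondria. Endurance training is known to induce the coactivator PGC-1α, encoded by Ppargc1a, and with it mitochondrial genes and slower fibre isoforms. Protein breakdown in muscle runs through ubiquitin ligases that FOXO transcription factors and glucocorticoids induce, while the SREBP transcription factors drive the genes of fatty acid and cholesterol synthesis.

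Total counts were 23.3 to 25.8 M in the sedentary and 24.4 to 26 M in the exercised libraries. A gene at 1 CPM (counts scaled to library size) therefore rests on 23 to 26 counts. Libraries of the same group differed by more than sampling noise in every pair, with chi-square over degrees of freedom of 10.8 to 75. Xist, the RNA of the inactive X chromosome, exceeded the Y-linked Ddx3y in 2 of 3 libraries of each group (sedentary 1 and 3, exercised 8 and 10), so the sexes were balanced between the groups. Sedentary library 2 held 258 genes at more than 2-fold the level of every other young library, led by Tchh of the hair follicle at 463 CPM (0.443 or below elsewhere) and Dsp of desmosomes at 121 CPM. Sedentary library 1 held 174 such genes, led by Pck1 (209 CPM against 20.5 or below), Cidea, Adrb3 and other genes of fat cells. Sedentary library 3 held 19, among them the slow-fibre genes Myh7 and Tnni1, and the exercised libraries held 2 to 8 each. Krt5, a keratin of the epidermis, had 3506 counts in sedentary library 2 and 0 to 5 in the other 5. The muscle label was checked against Myh4, the fastest myosin, which held 45700 to 87900 CPM in all 6.

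Aff1, a scaffold of the machinery that speeds transcription elongation (chromosome 5, 103692374 to 103855322, GRCm38), stood at 49.9, 56.5 and 53.1 CPM in sedentary libraries 1, 2 and 3. In exercised libraries 7, 8 and 10 it stood at 101, 94.6 and 105 CPM. Values below follow this order of libraries and are CPM after scaling by trimmed means of M values (TMM). The 2 groups were separated by a wide gap and Aff1 rose by a log2 fold change of 0.92 ± 0.094 (SE; edgeR adjusted p = 0.00651). Cep85l, which encodes a protein of the centrosome (chromosome 10, 53278081 to 53379851), stood at 13.2, 9.18 and 12.9 CPM in the sedentary and 42.3, 30.3 and 30.4 CPM in the exercised libraries. Exercised library 7 was the highest, the lowest exercised value was more than 2-fold the highest sedentary one, and Cep85l rose by 1.55 ± 0.185 (edgeR adjusted p = 0.0214). In whole muscle, a change in the number of cells of a type and a change in RNA per cell cannot be told apart. Without sedentary library 1 the adjusted p was 0.0648 for both genes. Without exercised library 10 it was 0.0584 for Aff1 and 0.0654 for Cep85l, and without sedentary library 3 it was 0.062 for Cep85l. In a fit of the 6 young libraries alone it was 0.0399 for Aff1 and 0.121 for Cep85l. The fold changes stayed between 0.79 and 0.96 and between 1.37 and 1.64 under all alternatives run.

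These 2 genes, 0.0131% of the 15304 tested, were all that passed an edgeR adjusted p of 0.05 upward, and 0 genes (0%) passed it downward. DESeq2 called 111 genes upward and 118 downward, and limma voom called 6 and 0. At an unadjusted p under 0.05, edgeR had 873 genes higher (5.7%) and 1123 lower (7.34%) in exercised muscle. All 3 exercised libraries lay above all 3 sedentary ones for 1459 genes (9.53%) and below them for 1334 (8.72%). The median log2 fold change over all genes was −0.0086. The balance of these counts depends on scaling. With plain library totals in place of TMM the median gene shifted by −0.127, and 361 genes lay above and 3084 below, with 189 higher and 2510 lower at an unadjusted p under 0.05. All fold changes below are therefore relative to the median gene.

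The part of single libraries was read only among genes at an unadjusted p under 0.05, a threshold that can leave out differences set by 1 library. Of the 1996 genes at an unadjusted p under 0.05, 218 had a fold change that shrank by more than 50% when 1 library was left out, and 200 of the 218 were genes lower in exercised muscle. Sedentary library 2 carried 160 of them, sedentary library 1 carried 38, and each of the other libraries 4 to 7. With 1 young library left out, 1152 to 1365 of the 1996 genes were still at an unadjusted p under 0.05 in edgeR. In a principal component analysis of the 6 libraries the first component (38.2% of the variance) set sedentary library 2 apart at 47.3, with the others from −20.9 to 11.6. The second (29.6%) placed the sedentary libraries at −30.7, −18.1 and −10.5 and the exercised ones at 25.4, 13.9 and 20.1, without overlap.

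Among the other genes with the smallest p, the 9 given here were higher in all exercised libraries and had edgeR adjusted p from 0.0631 to 0.0754. Ucp3, a carrier of the inner mitochondrial membrane that fasting and fat use induce (chromosome 7, 100472990 to 100486432), stood at 64.6, 79.5 and 66.6 CPM in the sedentary and 310, 229 and 275 CPM in the exercised libraries. That was the largest fold among these 9 genes, 1.95 ± 0.262 on the log2 scale. Secreted proteins were represented by Dkk2, an antagonist or modulator of Wnt receptors, at 4.86, 6.05 and 5.58 against 10.6, 12 and 11 CPM. Fibin, a secreted protein described in fin bud development, stood at 13.2, 11.8 and 12.5 against 28.8, 43.1 and 39.8 CPM. Rnase4, a secreted ribonuclease whose locus overlaps that of Ang so that reads may be shared, stood at 36.6, 32.5 and 33.7 against 48.4, 56.1 and 49.9 CPM. Within each group these 3 genes varied less than between the groups. The rule that chose them took small p and no overlap, so this is no further support. At the cell surface, Lyve1, a receptor for hyaluronan, stood at 8.5, 8.9 and 11 against 16.1, 25.6 and 21.8 CPM, lowest of the exercised libraries in 7. Gpr146, a receptor without a settled ligand, stood at 36.9, 46.2 and 44.9 against 70, 67.5 and 59.5 CPM. The groups did not overlap for either receptor, as the rule that chose them required. Sorbs3, the vinculin-binding adaptor vinexin, stood at 44, 52.7 and 49.1 against 92.8, 67.1 and 92 CPM. Slc35e4, of a family of nucleotide sugar carriers, was the most even of the 9, at 25.7, 30.7 and 28.6 against 40.5, 41.8 and 40.8 CPM. The remaining one, Ppargc1a, is described with its pathway.

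**Figure D1:**
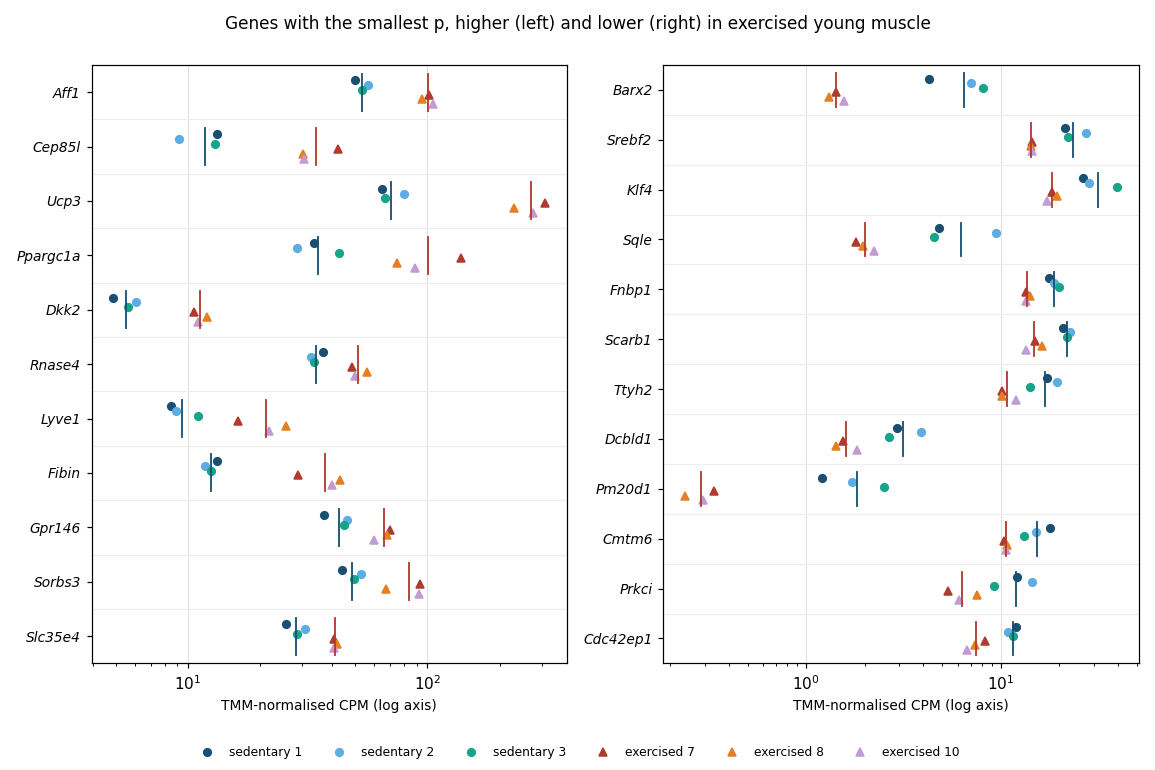
TMM-normalised CPM (log axis) of 11 higher (left) and 12 lower (right) genes with the smallest p and no overlap between groups, with circles for sedentary libraries, triangles for exercised libraries and a vertical bar at each group mean (n = 3). The groups are separated for all 23 because the rule chose them so, and the exercised values of Srebf2 fall between 14.3 and 14.4 CPM.

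The 12 genes lower in exercised muscle with the smallest p had edgeR adjusted p from 0.0631 to 0.158. Barx2, a homeobox factor that binds muscle gene promoters in myogenic cells, stood at 4.29, 6.99 and 8.13 CPM in the sedentary and 1.42, 1.31 and 1.56 CPM in the exercised libraries (log2 fold change −2.17 ± 0.34). Exercised values lay within a narrow band while the sedentary ones spread almost 2-fold. Pm20d1, a secreted enzyme that joins fatty acids to amino acids, stood at 1.21, 1.72 and 2.51 against 0.334, 0.238 and 0.296 CPM. This was the largest fold of the 12, −2.63 ± 0.546, at a level of few counts. The genes that follow had smaller folds. Klf4, a zinc finger transcription factor of endothelial and smooth muscle cells, stood at 26.3, 28.5 and 39.5 against 18.4, 19.4 and 17.3 CPM. Prkci, an atypical protein kinase C of cell polarity, stood at 12.1, 14.4 and 9.27 against 5.35, 7.55 and 6.13 CPM. Cdc42ep1, an effector of the GTPase Cdc42, stood at 12, 10.9 and 11.6 against 8.32, 7.39 and 6.68 CPM. Both are partners of small GTPase signalling at the cell cortex, and both groups were tight for Cdc42ep1. A further group acts at membranes. Fnbp1, which bends them, stood at 17.7, 18.7 and 20 against 13.4, 14.2 and 13.5 CPM. Cmtm6, which keeps PD-L1 on the cell surface, stood at 17.8, 15.2 and 13.1 against 10.4, 10.8 and 10.6 CPM. Ttyh2 of the tweety family stood at 17.2, 19.5 and 14.2 against 10.2, 10.1 and 11.9 CPM, and Dcbld1, a membrane protein, had a log2 fold change of −0.98 ± 0.201. The other 3, Srebf2, Sqle and Scarb1, belong to cholesterol metabolism.

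Oxidative genes were examined from the regulators down to the respiratory chain. Ppargc1a (chromosome 5, 51454250 to 51567726) stood at 33.6, 28.6 and 42.8 CPM in the sedentary and 138, 74.3 and 89 CPM in the exercised libraries, highest in library 7. Its log2 fold change was 1.52 ± 0.231 (edgeR adjusted p = 0.0631). The related coactivator Ppargc1b lay the other way, at 7.33, 5.51 and 10.9 against 4.72, 4.41 and 3.93 CPM (−0.86 ± 0.304, edgeR adjusted p = 0.286). Among the 21 mitochondrial regulators 4 lay above and 1 below without overlap (19% and 4.76%), and their median log2 fold change was −0.015. Those above included Sirt1, a deacetylase that acts on PGC-1α (11.6, 10.8 and 12 against 12.2, 13.8 and 15.9 CPM), the kinase subunit Prkaa2 and Tfam, which packs mitochondrial DNA. Tfam stood at 46.4, 47.1 and 45.3 against 50.4, 48 and 48 CPM, a step of 0.08 on the log2 scale.

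Few structural genes of the respiratory chain separated the groups. Of 36 nuclear subunits of complex I, 0 lay above and 0 below, with a median of −0.05. Of 41 subunits of complexes II to V, 0 lay above and 2 below, with a median of −0.109, and of 13 mitochondrially encoded genes 1 lay below (mt-Nd4l, 4.86, 4.84 and 4.69 against 4.64, 4.09 and 4.02 CPM). The 2 nuclear ones were cytochrome oxidase subunits, Cox6a1 at 38.2, 18.1 and 16.4 against 11.6, 13.8 and 12.4 CPM and Cox8a at 39.3, 24.1 and 19.5 against 15.8, 17.5 and 16.6 CPM. Sedentary library 1, which held fat-cell genes, was the highest for both. Sedentary library 3, which held the most slow-fibre transcripts, had the highest median of both nuclear subunit lists. Without it the median became 0.026 for complex I and 0.001 for complexes II to V. Cs, the citrate synthase often read as a measure of mitochondrial content, stood at 674, 654 and 780 against 742, 645 and 672 CPM, with overlapping groups. In the list of pyruvate dehydrogenase and the citric acid cycle 1 of 23 genes lay above and 0 below. It was Pdk4, the kinase that closes pyruvate dehydrogenase when fat is burned, at 401, 120 and 290 against 1160, 530 and 713 CPM (1.57 ± 0.681, edgeR adjusted p = 0.38).

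Fibre-type genes differed in how evenly the libraries carried them. All 15 slow-fibre genes had a negative fold change, with a median of −2.42, yet only 1 of the 15 (6.67%) lay below without overlap. Myh7, the slow myosin, stood at 246, 1.09 and 635 CPM in the sedentary and 1.84, 16.4 and 5.88 CPM in the exercised libraries. Tnni1, slow troponin I, stood at 34, 0.976 and 83.5 against 1, 2.9 and 1.14 CPM. Sedentary libraries 1 and 3 were thus high and sedentary library 2 lay at or under the exercised libraries. Atp2a2, the calcium pump of slow fibres and the 1 gene without overlap, stood at 221, 65.1 and 451 against 58.4, 56.5 and 40.6 CPM (−2.25 ± 0.75, edgeR adjusted p = 0.287). At an unadjusted p under 0.05 in edgeR 6 of the 15 were lower, 0 without sedentary library 3, 0 without exercised library 10, 2 without sedentary library 1 and 12 without sedentary library 2. The count was 11 with DESeq2, 2 with limma voom and 1 with a sex term. The medians over the list in each library, relative to the sedentary mean, were 0.68, −2.11 and 1.53 in sedentary and −2.01, −1.22 and −2.19 in exercised muscle.

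The myosins between slow and fastest took the same order across the sedentary libraries. Myh2, the myosin of type IIa fibres, stood at 1830, 421 and 3420 against 403, 763 and 231 CPM, and Myh1 of type IIx at 4960, 3050 and 7090 against 2640, 3560 and 3530 CPM. Myh4, of the fastest type IIb fibres, stood at 55700, 72900 and 45700 against 87900, 67600 and 75300 CPM, and its groups overlapped through sedentary library 2 as well. Of all 18 fast-fibre genes 9 (50%) lay above and 0 below, 11 were higher at an unadjusted p under 0.05 in edgeR and the median was 0.297. Actn3, an actin crosslinker at the Z-disc of fast fibres, stood at 9180, 8840 and 8870 against 11900, 12100 and 13800 CPM (0.49 ± 0.111, edgeR adjusted p = 0.166). Mybpc2, fast myosin-binding protein C, stood at 5460, 5870 and 4900 against 8020, 6880 and 7790 CPM, and Atp2a1, the fast calcium pump, at 24300, 25500 and 24200 against 31100, 31900 and 32800 CPM. For these 3 genes every exercised library lay above every sedentary one, library 2 with its few slow-fibre transcripts included. All 3 met a naming rule that asks for this, so it adds nothing to the count of 9 of 18. Actn3 was also in the fixed set of markers, itself chosen with earlier results of these data known. With plain totals the list median was 0.162 and 3 of 18 had an unadjusted p under 0.05, as did 3 without sedentary library 3, 6 without exercised library 7 and 7 without exercised library 10.

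**Figure D2:**
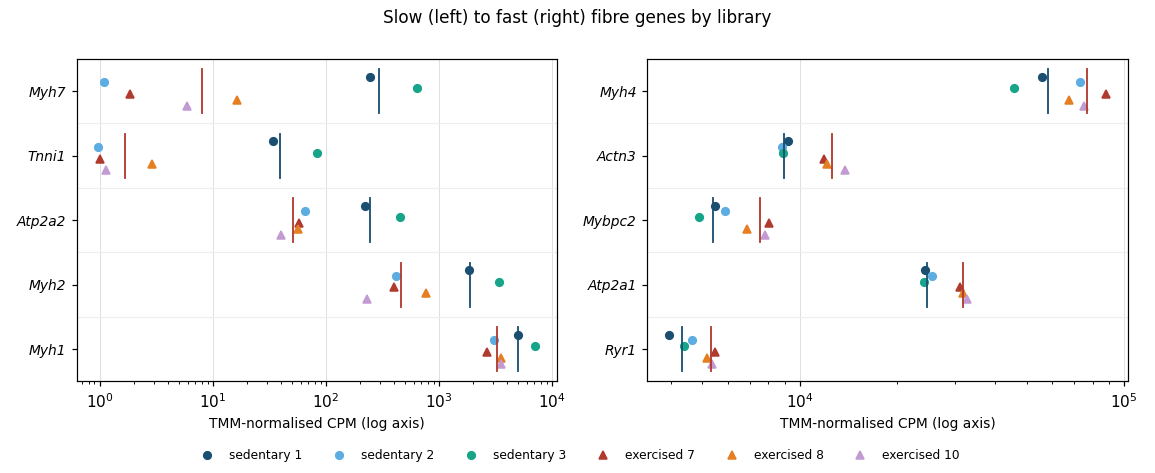
TMM-normalised CPM (log axis) of slow and intermediate (left) and fast (right) fibre genes, with circles for sedentary libraries, triangles for exercised libraries and vertical bars at the group means (n = 3). Myh7 and Tnni1 are high in sedentary 1 and 3 and low in sedentary 2, whereas Actn3 and Atp2a1 separate all libraries of the 2 groups. Actn3 and Atp2a1 met a naming rule that asks for this separation.

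Genes of calcium handling, which couples excitation to contraction, were counted next. Of 23 members 10 (43.5%) lay above and 0 below, with a median of 0.167. Ryr1, the calcium release channel, stood at 3960, 4650 and 4380 against 5470, 5190 and 5350 CPM. Cacna1s, the voltage sensor that opens it, stood at 1020, 821 and 1000 against 1090, 1340 and 1300 CPM, and Camk2b, a calcium-sensitive kinase subunit, at 131, 139 and 153 against 167, 169 and 171 CPM. The smallest edgeR adjusted p of the list was 0.236. At an unadjusted p under 0.05, 8 members were higher and 1 lower, the 8 becoming 0 with plain totals, 4 without exercised library 7, and 5 without sedentary library 1 or 3 or exercised library 10. Of 29 regulators of fibre type 3 (10.3%) lay above and 3 (10.3%) below, near the shares over all genes (9.53% and 8.72%). Ppp3r1, the regulatory subunit of calcineurin, stood at 191, 185 and 174 against 228, 228 and 219 CPM, and Hdac4, a repressor of MEF2 targets, at 41.7, 39.9 and 33.7 against 68.2, 46.9 and 72.8 CPM. Below stood Barx2, Nfatc2 and Hdac9, and above stood also Sox6, a repressor of slow genes (142, 150 and 161 against 183, 194 and 176 CPM).

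Proteolysis genes are given from the ligases and their FOXO regulators to the proteasome. Of 22 ubiquitin ligases and atrophy genes 9 (40.9%) lay above and 0 below, and the median was 0.129. Trim63, the ligase MuRF1 of the sarcomere, stood at 256, 218 and 277 against 727, 525 and 654 CPM (1.34 ± 0.251, edgeR adjusted p = 0.135). Fbxo32, the ligase atrogin-1, stood at 325, 304 and 501 against 1010, 505 and 618 CPM. Exercised library 7 was the highest and library 8 the lowest of the exercised libraries for Trim63 and Fbxo32, and sedentary 3 and exercised 8 almost met for Fbxo32. The FOXO factors that induce these ligases were read next. Foxo1 stood at 23.3, 23.7 and 24.2 against 84, 51.5 and 45.8 CPM, a sedentary spread of less than 1 CPM (SD 0.448, n = 3). Foxo3 stood at 35.8, 30 and 36.4 against 45.5, 56.4 and 69.7 CPM, so that library 7 was the highest for Foxo1 and the lowest of the exercised libraries for Foxo3. At an unadjusted p under 0.05, 8 of the 22 were higher in edgeR, and 6 or 7 without any 1 library. With plain totals 5 were, and the list median was −0.007.

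Trim63 is shown with its promoter because its RNA had the second largest fold of these named ligase genes and regulators. The window is the 250 bases before the transcription start given by RefSeq on GRCm38.p6 (chr4:134314870-134315119, plus strand). Capitals mark a forkhead core, GTAAACA, found on the opposite strand, directly beside a glucocorticoid receptor half-site, TGTTCT.

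Trim63: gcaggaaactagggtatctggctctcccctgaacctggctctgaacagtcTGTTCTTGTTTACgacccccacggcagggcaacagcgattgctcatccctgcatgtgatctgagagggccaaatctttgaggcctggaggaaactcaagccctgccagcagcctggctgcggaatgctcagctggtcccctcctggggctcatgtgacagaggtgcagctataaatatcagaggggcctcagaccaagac

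Promoters of 16 of the 22 ligase and atrophy genes were found among the RefSeq windows of 300 bases. Searched on both strands, GTAAACA was in 1 of the 16 (Trim63) and in 4.05% of all 27025 genes with a window. TGTTCT was in 5 of the 16 and in 21.3% of all. The shares over all genes with a window were not limited to genes tested here.

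Downstream of the ligases the differences were small. Of 33 proteasome subunits 4 (12.1%) lay above and 0 below, 0 had an unadjusted p under 0.05 in edgeR and the median was 0.062. Psmd6, a lid subunit, stood at 137, 131 and 126 against 148, 142 and 149 CPM. Of 28 autophagy and lysosome genes 5 (17.9%) lay above and 0 below, with a median of 0.08. Pik3c3, the lipid kinase that starts autophagosomes, stood at 17, 16.7 and 18.6 against 24.3, 20.8 and 23.1 CPM. With plain totals both medians were negative (−0.072 and −0.052). Among 14 calpains and other proteases 4 (28.6%) lay above and 2 (14.3%) below, against 9.53% and 8.72% of all genes. Adamts1, a protease of the matrix, stood at 41.5, 31.8 and 31.5 against 63.1, 58.3 and 57 CPM, and Timp2, a metalloproteinase inhibitor, at 106, 112 and 139 against 154, 177 and 143 CPM.

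Glucocorticoid-responsive genes were mixed, with 4 of 19 (21.1%) above and 0 below, against 9.53% and 8.72% of all genes. Zbtb16, a transcription factor that glucocorticoids induce, stood at 114, 67.9 and 91.8 against 166, 200 and 190 CPM. Fkbp5, a chaperone of the receptor, stood at 73.9, 56 and 21.7 against 114, 189 and 201 CPM, and Tsc22d3 (GILZ) at 219, 200 and 155 against 319, 233 and 286 CPM. Klf15, another known target, overlapped at 53.1, 22.3 and 61.1 against 47.5, 51 and 60.7 CPM. The list median was 0.209 and turned to −0.111 without sedentary library 2, the library with the lowest Klf15.

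Lipid genes are given from use to synthesis. Of 25 genes of fatty acid uptake and oxidation 24 had a negative fold change, but 1 lay above and 2 below, and the median was −0.246. Cpt1b, the carnitine transferase that admits fatty acids to mitochondria, stood at 34.8, 33.2 and 38.5 against 37.4, 32 and 34.2 CPM. Mlycd, which removes the malonyl-CoA that blocks that step, stood at 70.6, 56.2 and 62.1 against 75.4, 76.6 and 78.8 CPM, and Lpl, which frees fatty acids from lipoproteins, at 880, 412 and 918 against 402, 305 and 277 CPM. Sedentary library 2 again sat near the exercised libraries for Lpl. Among 18 genes that fasting or PPAR factors induce 3 (16.7%) lay above, Ucp3, Pdk4 and Lpin1, and 2 (11.1%) below, Bdh1 and Cyp4b1. The shares over all genes were 9.53% and 8.72%. Lpin1, a phosphatidate phosphatase and coactivator, stood at 362, 393 and 333 against 552, 528 and 569 CPM (0.60 ± 0.123, edgeR adjusted p = 0.154).

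Genes of fatty acid and triglyceride synthesis held the largest share without overlap among the lists drawn in the plot of shares. Of 24 members 15 (62.5%) lay below and 1 above, and the same numbers were lower and higher at an unadjusted p under 0.05 in edgeR, with a median of −0.794. Acly, which makes acetyl-CoA from citrate, stood at 153, 42.4 and 43.9 against 15.5, 17.3 and 23 CPM. Acss2, which makes it from acetate, stood at 57.7, 34.9 and 52.4 against 25.9, 24.2 and 24 CPM (−0.97 ± 0.202, edgeR adjusted p = 0.159). Fasn, fatty acid synthase, stood at 713, 119 and 138 against 25.6, 30 and 47.6 CPM. All 3 make the building blocks or the chain itself. Further along the pathway, Elovl6, which lengthens the products, stood at 33.5, 13.2 and 5.84 against 1.55, 1.87 and 2.75 CPM (−3.09 ± 0.751, edgeR adjusted p = 0.214). Scd1, which desaturates them, stood at 690, 150 and 161 against 66, 51.2 and 78.7 CPM, and Dgat2, which forms triglyceride, at 104, 42.2 and 56.2 against 16.7, 17.9 and 19.9 CPM. Sedentary library 1 was the highest for each of these 6 genes, and sedentary libraries 2 and 3 were also above every exercised library. Acss2, Elovl6 and Dgat2 met a naming rule that asks for no overlap, and Acly was chosen after its values were seen. Fasn and Scd1 were in the fixed set of markers, which was chosen with earlier results of these data known. For these genes the separation is therefore no further support.

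Markers of fat cells were read beside these genes, and their summed levels overlapped between the groups. The 13 adipocyte markers summed to 4650, 910 and 2820 CPM in sedentary and 803, 1700 and 3070 CPM in exercised muscle, all 13 had a negative fold change, 2 lay below, 1 was lower at an unadjusted p under 0.05 in edgeR, and none was at 0 in every library. Adipoq, their most specific hormone gene, stood at 138, 18.8 and 16.6 against 7.36, 23 and 9.85 CPM, with overlap. The medians over the 13 markers in each library, relative to the sedentary mean, were 1.56, −0.68 and −1.04 against −2.08, −0.55 and −1.52. By this measure exercised library 10, which had the highest exercised sum, lay below all sedentary libraries, and the overlap came from exercised library 8. The median log2 fold change of these markers was −1.698, and −0.38 without sedentary library 1. That of the synthesis list was −0.794, and −0.80 without that library, where 8 of its members were lower at an unadjusted p under 0.05. The part of fat cells in the result was not tested. Srebf1, the regulator of this pathway, stood at 55.6, 74.4 and 45.2 against 56.2, 39.6 and 38 CPM with overlap. The member above was Mlxip, a glucose sensor of the ChREBP family, at 129, 141 and 109 against 155, 151 and 170 CPM.

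Of 14 lipid droplet genes 2 (14.3%) lay above and 2 (14.3%) below, against 9.53% and 8.72% of all genes. Of the 14 genes 12 had a negative fold change, with a median of −0.369. Plin4, a coat protein of droplets, stood at 304, 188 and 254 against 440, 565 and 554 CPM. Mgll, the last lipase of triglyceride breakdown, stood at 95.8, 48.6 and 54 against 43.7, 32.6 and 42.2 CPM, and Cidea, of fat-cell droplets, at 10.8, 0.742 and 0.591 against 0.209, 0.517 and 0.169 CPM, so that sedentary library 1 set its mean.

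Sedentary library 1 with its fat transcripts was not the highest for any cholesterol gene named below. Of 27 genes of cholesterol synthesis and uptake 11 (40.7%) lay below and 0 above, and 12 were lower and 1 higher at an unadjusted p under 0.05 in edgeR, with a median of −0.478. Srebf2, the transcription factor that switches this pathway on (chromosome 15, 82147266 to 82205376), stood at 21.3, 27.5 and 22.1 against 14.4, 14.3 and 14.4 CPM (−0.72 ± 0.116, edgeR adjusted p = 0.0631). Its exercised values were all but equal (SD 0.0558, n = 3). Of its targets, Hmgcs1, an early enzyme of the route, stood at 46.7, 61.2 and 43 against 38.7, 36.1 and 36.9 CPM. Sqle, which makes squalene epoxide, stood at 4.82, 9.41 and 4.51 against 1.8, 1.95 and 2.24 CPM (−1.64 ± 0.291, edgeR adjusted p = 0.0906). Both enzymes precede lanosterol. Cyp51, which removes a methyl group from lanosterol, stood at 9.35, 14.3 and 9.09 against 5.73, 5.68 and 5.12 CPM. Scarb1, a lipoprotein receptor, stood at 20.8, 22.6 and 21.9 against 15, 16.2 and 13.4 CPM. Exercised libraries lay below all sedentary ones for each of these 5 genes. A naming rule asked for this in all but Hmgcs1, which was chosen after its values were seen. Sedentary library 2, which held skin and hair transcripts, was the highest for each of the 5 genes. Without it 10 members were still lower at an unadjusted p under 0.05 and the median was −0.272, so library 2 set part of the size. The part of skin in the result was not tested. Across all alternatives the number lower was 10 to 18. The 18 came with plain totals, where 16.4% of all genes were lower at that threshold, against 7.34% with TMM.

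**Figure D3:**
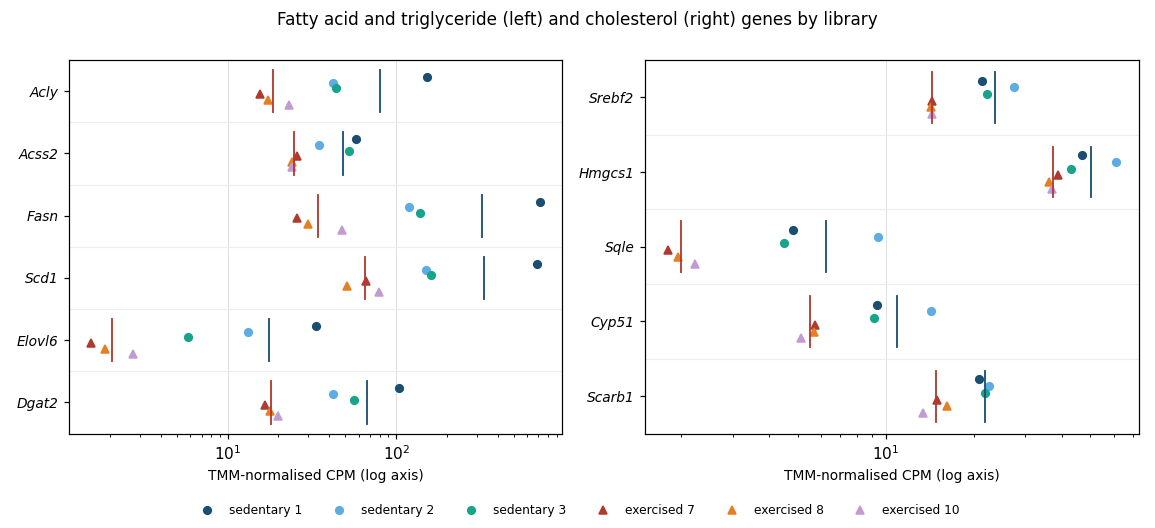
TMM-normalised CPM (log axis) of genes of fatty acid and triglyceride synthesis (left) and cholesterol metabolism (right), with circles for sedentary libraries, triangles for exercised libraries and vertical bars at the group means (n = 3). Sedentary 1 is the highest on the left (Fasn at 713 CPM) and sedentary 2 on the right (Srebf2 at 27.5 CPM). The exercised libraries lie below all 3 sedentary ones in every row. All genes but Fasn and Scd1 met a naming rule that asks for this or were chosen after their values were seen. Fasn and Scd1 were in the fixed set of markers, which was chosen with earlier results of these data known.

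Promoters of Srebf2 and its target Hmgcs1 are shown because both genes lay below without overlap and SREBP proteins are known to bind sterol elements near CCAAT boxes. Each is the 250 bases before the RefSeq start on GRCm38.p6, plus strand (Srebf2 chr15:82147019-82147268, Hmgcs1 chr13:119690101-119690350). Capitals mark the CCAAT box, which appears here as ATTGG because it is on the opposite strand, and in Hmgcs1 also a match to the sterol element core TCACNNCAC.

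Srebf2: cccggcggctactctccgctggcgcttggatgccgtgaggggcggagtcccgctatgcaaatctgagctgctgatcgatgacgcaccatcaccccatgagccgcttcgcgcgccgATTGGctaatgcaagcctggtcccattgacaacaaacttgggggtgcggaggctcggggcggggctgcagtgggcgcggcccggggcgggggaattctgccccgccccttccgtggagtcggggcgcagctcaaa

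Hmgcs1: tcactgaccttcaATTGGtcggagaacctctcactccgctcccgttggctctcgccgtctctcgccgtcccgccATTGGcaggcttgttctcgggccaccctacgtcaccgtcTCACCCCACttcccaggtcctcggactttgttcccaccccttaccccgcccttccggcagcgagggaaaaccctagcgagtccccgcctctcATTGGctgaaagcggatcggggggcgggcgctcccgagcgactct

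Windows were found for 20 of the 27 cholesterol genes and 19 of the 24 fatty acid synthesis genes. On either strand TCACNNCAC was in 4 of the 20 and 1 of the 19, against 4.37% of all genes with a window. CCAAT was in 18 of the 20 and 14 of the 19, against 41.1% of all, and the E-box CACGTG in 6 and 4, against 8.09%. Of 16 glucocorticoid-responsive genes with a window, 2 held TCACNNCAC, 10 held CCAAT and 5 held CACGTG. For the 16 ligase and atrophy genes these numbers were 1, 8 and 2. List members were genes tested here, whereas the shares over all genes with a window were not limited to tested genes. These are matches of letters, and no binding was measured.

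Glucose genes are given from glycolysis to glycogen. Of 20 glycolysis genes 16 had a positive fold change, 9 (45%) lay above and 1 below, with a median of 0.257. Aldoa, the muscle aldolase, stood at 13400, 15100 and 13400 against 17300, 17400 and 17900 CPM, and Pgk1, which forms ATP, at 689, 747 and 702 against 880, 837 and 844 CPM. Both are steps of the glycolytic route itself. Slc16a3, which exports lactate, stood at 258, 361 and 234 against 388, 400 and 395 CPM. At an unadjusted p under 0.05 in edgeR 8 were higher, but 0 with plain totals, 1 without sedentary library 1, 2 without sedentary library 3, 3 without exercised library 10 and 5 without exercised library 7. Of 21 genes of glucose uptake, glycogen and insulin signalling 5 (23.8%) lay above and 0 below, while 13 had a positive and 8 a negative fold change. At an unadjusted p under 0.05 in edgeR 6 were higher and 2 lower, and the median was 0.071, or −0.06 with plain totals. Ppp1r3c, which directs phosphatase to glycogen and promotes its synthesis, stood at 859, 654 and 429 against 1350, 1620 and 1310 CPM (1.14 ± 0.315, edgeR adjusted p = 0.246). Phka1, a subunit of the kinase that starts glycogen breakdown, stood at 829, 1110 and 871 against 1260, 1170 and 1260 CPM, and Slc2a4, the insulin-sensitive glucose carrier, at 447, 466 and 500 against 501, 538 and 560 CPM.

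**Figure D4:**
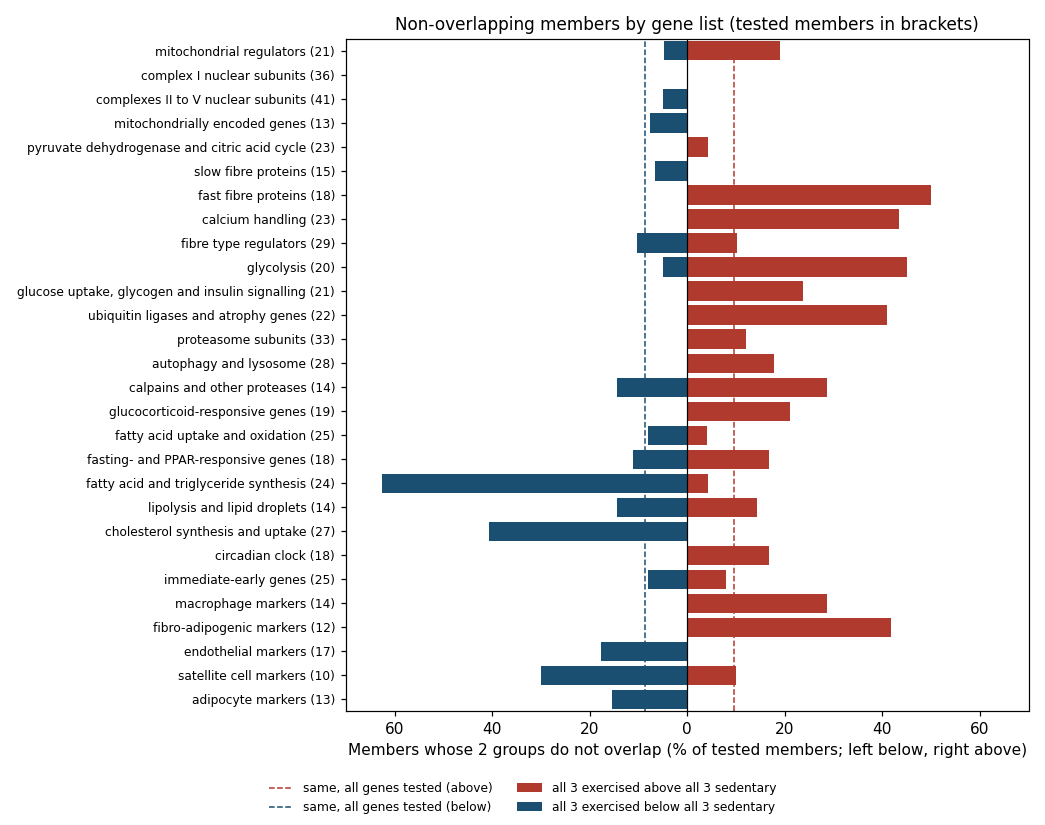
Share of tested members (percent) of each gene list for which all 3 exercised libraries lay above (right, red) or below (left, blue) all 3 sedentary ones, with dashed lines at the share over all 15304 genes (9.53% and 8.72%). Fatty acid synthesis (62.5% below), fast fibre proteins (50% above) and glycolysis (45% above) extend farthest, and complex I has no bar.

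Genes tied to the time of day or to recent activity give context for sampling. Of 18 clock genes 3 (16.7%) lay above and 0 below, against 9.53% and 8.72% of all genes. Rora, an activator of Bmal1, stood at 102, 107 and 102 against 129, 136 and 137 CPM, and Tef, an output factor, at 205, 279 and 231 against 314, 308 and 310 CPM. The repressor Cry2 stood at 26.7, 34.2 and 26.2 against 41.4, 34.2 and 37.1 CPM, with sedentary 2 and exercised 8 all but equal. Of 25 immediate-early genes 2 (8%) lay above and 2 (8%) below, near the shares over all genes. Of the 25 genes 20 had a negative fold change (median −0.436). Jund, a subunit of AP-1, stood at 41.6, 30.7 and 39.3 against 24, 27.2 and 23.6 CPM, whereas its relative Jun stood at 96.1, 63.6 and 69.5 against 99.9, 99.3 and 113 CPM. The labels give no hour of dissection for either group.

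Markers of cells other than fibres were counted next. All 14 macrophage markers had a positive fold change, 4 (28.6%) lay above, and the summed level was 172, 162 and 182 CPM in sedentary and 188, 279 and 207 CPM in exercised muscle. Cd163, a haemoglobin receptor of resident macrophages, stood at 19.5, 19.3 and 18.3 against 25.8, 38 and 29.6 CPM. Exercised library 8 was the highest, and without it the list median was 0.087 in place of 0.338. Of 12 fibro-adipogenic markers 5 (41.7%) lay above and 0 below. Pdgfra, the receptor that defines these matrix-forming progenitors, stood at 31.6, 22.8 and 31.4 against 33.8, 51.5 and 46 CPM, and Dcn, the proteoglycan decorin, at 272, 301 and 361 against 457, 447 and 415 CPM. Lox, which crosslinks collagen, stood at 17.3, 15.5 and 21.9 against 33.3, 35.4 and 26.4 CPM, the only 1 of 20 collagen and matrix genes above, with 0 below.

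Endothelial and myogenic markers follow. All 17 endothelial markers had a negative fold change and 3 (17.6%) lay below, with a median of −0.185 that became −0.064 without sedentary library 3. Emcn, a sialomucin of capillaries and veins, stood at 11.4, 8.16 and 12.9 against 6.85, 4.93 and 6.39 CPM. Cdh5, the cadherin of endothelial junctions, stood at 65.8, 60 and 76.9 against 50.8, 46.3 and 49.3 CPM. Of 10 satellite cell markers 3 (30%) lay below and 1 (10%) above, where 8.72% and 9.53% of all genes did. Of these 10 markers 6 had a positive and 4 a negative fold change, with a median of 0.056. The 3 below were Pax7, Notch3 and Heyl. Pax7, the factor that defines these stem cells, stood at 3.12, 2.77 and 2.99 against 1.67, 1.91 and 1.06 CPM (−0.93 ± 0.225, edgeR adjusted p = 0.195). Notch3 stood at 23.7, 28.2 and 27.6 against 16.1, 21.8 and 17 CPM and its target Heyl at 6.68, 8.28 and 8.28 against 4.51, 6.32 and 4.53 CPM. Of 11 smooth muscle and pericyte markers 2 (18.2%) lay above and 1 (9.09%) below. In that list 2 had a positive and 9 a negative fold change, with a median of −0.311, or −0.085 without sedentary library 3. At the neuromuscular junction 1 of 14 genes (7.14%) lay above and 2 (14.3%) lay below, against 9.53% and 8.72% of all genes. The list was level, with 7 positive and 7 negative fold changes and a median of 0.004. The 2 below were the signal Agrn (19.8, 24.9 and 20.1 against 13, 17.5 and 13.6 CPM) and its receptor Lrp4 (10.6, 14.6 and 17.4 against 8.11, 8.78 and 7.61 CPM). Whether cell number or RNA per cell differed was not tested.

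**Figure D5:**
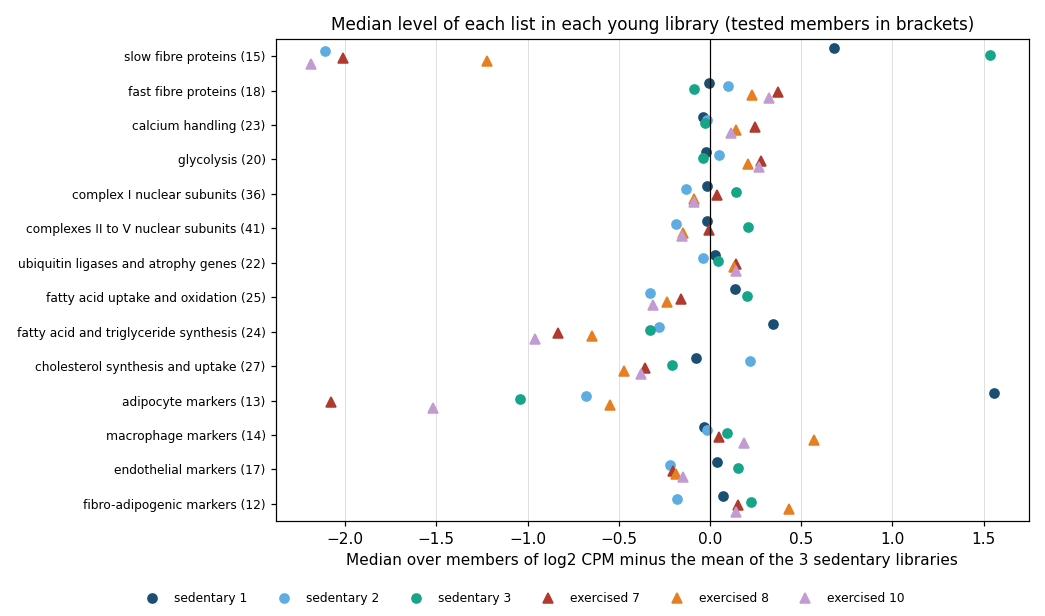
Median over the members of each list of log2 CPM minus the mean of the 3 sedentary libraries, 1 point per library, with circles for sedentary and triangles for exercised libraries. Slow-fibre genes place sedentary 2 at −2.11 beside the exercised libraries, adipocyte markers place sedentary 1 at 1.56, and macrophage markers place exercised 8 at 0.57.

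Arnt, which the series title names, encodes the partner that hypoxia-inducible factors need to bind DNA. It stood at 55.6, 49.8 and 52.4 CPM in the sedentary and 54.1, 50.3 and 63.4 CPM in the exercised libraries, with overlap. Of 11 genes around it 2 (18.2%) lay above and 0 below, against 9.53% and 8.72% of all genes. In this list 6 genes had a positive and 5 a negative fold change, with a median of 0.088. The median was −0.049 without exercised library 7, −0.01 without exercised library 10 and −0.046 with plain totals. The 2 genes above encode oxygen sensors that restrain hypoxia-inducible factors. Hif1an, the asparagine hydroxylase, stood at 287, 296 and 283 against 345, 340 and 337 CPM. Egln2, a prolyl hydroxylase, stood at 89.5, 100 and 96.3 against 117, 112 and 113 CPM.

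The response was then set against that of old muscle by the difference between the 2 fold changes, old minus young. Of the 15304 genes 8 (0.0523%) passed an edgeR adjusted p of 0.05 for this difference, and 2353 had an unadjusted p under 0.05. Aff1 was 1 of the 8, at 65.1 ± 5.59 CPM in old sedentary and 65.3 ± 6.74 CPM in old exercised muscle (n = 3 each), with a log2 difference of −0.91 ± 0.132 (edgeR adjusted p = 0.0417). This call was lost with a sex term (edgeR adjusted p = 0.0527), with plain totals (0.0542) and with limma voom (0.0568). Xist exceeded Ddx3y in 0 of 3 old sedentary and 1 of 3 old exercised libraries, so that sex was not balanced between the old groups. Cep85l stood at 18.7 ± 3.48 and 17.4 ± 1.84 CPM in old muscle and its difference of −1.65 ± 0.258 missed the threshold (edgeR adjusted p = 0.0564). Close to it were Dkk2 (−1.30 ± 0.217, edgeR adjusted p = 0.0564), Klf4 (1.03 ± 0.187, 0.0683), Scarb1 (0.85 ± 0.153, 0.0683) and Ucp3 (−2.06 ± 0.362, 0.075). For the other genes named above no difference between the ages passed this threshold. The count of 8 was 57 without young sedentary library 2 and 0 in edgeR without any other 1 of the 12 libraries (1698 to 2447 at an unadjusted p under 0.05), and it was 0 with a sex term (2434). None of the 739 tested members of the 43 lists passed an adjusted p of 0.05 for young training in edgeR (153 at an unadjusted p under 0.05), against 39 by DESeq2 and 1 by limma voom.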

How the data were processed

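RNA of quadriceps femoris was sequenced in 12 libraries, 3 in each of 4 groups of age and training, and each deposited file holds whole-number counts per gene made with featureCounts, per the file headers. The submitters' processing notes list bcl2fastq 2.20.0.422, Trimmomatic 0.36, STAR 2.5.2b, Subread 1.5.2, DESeq2 and the genome GRCm38. The sources used here do not give the annotation release, the strand setting or the handling of multiply aligned reads. Paralogs (such as the myosins), antisense and overlapping genes are therefore uncertain. Each file lists 49315 genes, of which 48970 were given a symbol.

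Libraries were grouped by labelled age and treatment. The filterByExpr function of edgeR 4.0.16 (R 4.3.3), with a minimum count of 10 and total of 15, left 15304 genes, and TMM gave the scaling factors. All 12 libraries entered 1 robust quasi-likelihood fit with a coefficient for each group, which leaves 8 residual degrees of freedom. In it young exercised minus young sedentary, and the difference old minus young, were tested with Benjamini-Hochberg adjustment over all genes. SE were derived from the fold change and the F statistic. A gene "lay above" or "lay below" when all 3 exercised libraries exceeded, or were under, all 3 sedentary ones. Totals of 23.3 to 26 M counts set the precision of a young library.

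Named genes were those past the threshold, the 12 with the smallest p in each direction without overlap and with at least 1 CPM in the higher group, up to 3 members per list without overlap, a fixed set of markers and the 5 genes most particular to each young library. Also named were Acly, Foxo3, Hdac9, Hmgcs1, Mlxip, Nfatc2, Prkaa2, Slc2a4, Sox6, Spock2 and Tfam, which were chosen after their values were seen. A few genes that the rule covers are not reported here. The comparison, the 43 lists, the fixed set of markers and the alternatives were chosen with earlier results of these data known. The model was tested on simulated counts. Alternatives were the 6 young libraries alone, scaling by relative log expression (RLE) in edgeR, DESeq2 1.42.0, limma 3.58.1 voom, other filters and plain totals. Further ones were a sex term (female where Xist exceeded Ddx3y), a block for the old replicate numbers, and leaving out each library. Promoter sequences are RefSeq's on GRCm38.p6.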

Additional observations from a re-analysis of the deposited data

Results flagged for a closer look

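The training response of 2 named genes differed between old and young muscle by the edgeR test of the difference itself, but neither call held under every alternative. Aff1 had a log2 difference, old minus young, of −0.914 (edgeR adjusted p = 0.0417). Its 3 old sedentary libraries stood at 71.5, 61.6 and 62 CPM and its old exercised ones at 63.3, 72.8 and 59.7 CPM, which overlap, while all young exercised libraries lay above all young sedentary ones. Spock2, a proteoglycan of the extracellular matrix that was chosen after its values were seen, had a difference of −1.786 (edgeR adjusted p = 0.0417). Its level was 6.76, 6.99 and 8.13 CPM in the young sedentary libraries and 11.7, 15 and 14.3 CPM in the young exercised ones. In old muscle the order was the opposite, at 27.2, 23.3 and 21.6 CPM in sedentary and 9.01, 15.2 and 14.8 CPM in exercised libraries. With a sex term the edgeR adjusted p was 0.0527 for both genes. With plain totals it was 0.0542 for Aff1 and 0.0567 for Spock2, and limma voom gave adjusted p of 0.0568 and 0.0606. With 1 library left out it was 0.0612 to 0.162 for Aff1 and 0.0509 to 0.162 for Spock2, except without young sedentary library 2, where it was 0.0239 and 0.0321. The differences themselves stayed negative in all these fits. The part of sex in these results was not tested beyond the sex term.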

How the results depend on the processing

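The number of genes past an edgeR adjusted p of 0.05 in young muscle, 2, was 2 in the 6 young libraries alone (1 of them shared), 18 without a filter on low counts, 10 with a sex term, 6 with limma voom and 229 with DESeq2. It ran from 0 to 33 when 1 library was left out, at 0 in edgeR without sedentary 1 (1628 at an unadjusted p under 0.05) or exercised 10 (1432), 7 without exercised 7 and 33 without sedentary 2. For the difference between old and young the 8 genes became 27 without a filter, 438 with DESeq2, 3 with limma voom and 19 with plain totals. That number was 0 in edgeR with a sex term (2434 at an unadjusted p under 0.05) and 0 with a replicate block for the old numbers (2182, with adjusted p = 0.118 for both Aff1 and Spock2), and ran from 0 to 57 with 1 library left out. The young groups share no replicate number, so no paired analysis of young training was possible. Genes whose young groups do not overlap numbered 3929 to 5332 with 1 library left out, since 2 values overlap less often than 3. The number at an unadjusted p under 0.05 stayed within 1432 to 2699. Of 1526 values of 109 named genes under alternatives 8 changed sign, all of genes near 0, namely Arnt (−0.046) and Tfam (−0.057) with plain totals and, with 1 library left out, Cs (−0.094 to 0.047), Cpt1b (−0.101 to 0.022), Klf15 (−0.111 to 0.49) and Arnt (−0.01 to 0.16). The cause was not tested. With 3 libraries per group and 23 to 26 counts at 1 CPM, folds of genes near that level are least certain.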

Other observations

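Outside the lists described, erythroid genes had a positive fold change in all 7 tested members (median 0.912) with no member free of overlap. Their summed level was 83.7, 187 and 83 CPM in sedentary and 78.2, 204 and 283 CPM in exercised libraries, so sedentary 2 and exercised 8 and 10 stood high. Tendon markers summed to 162, 143 and 391 CPM in sedentary and 393, 506 and 370 CPM in exercised libraries. Fmod, a collagen-binding proteoglycan of tendon, stood at 64.8, 63 and 153 against 191, 216 and 175 CPM, and sedentary 3 lay nearest the exercised libraries. Heat shock proteins were level, with 10 of 20 positive, a median of −0.004 and 1 member above.

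Liver and plasma protein genes summed to 201, 20.1 and 32.2 CPM in sedentary and 36, 36.3 and 35.2 CPM in exercised libraries, so sedentary 1 alone was high, led by Alb at 129 CPM of its plain total. Ucp1, the brown-fat uncoupler, had 106 counts in that library and 0 or 1 in the other 5 young libraries.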
